A study of Saccharomyces cerevisiae with 2 samples.

Results

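The 35 genes described here act in yeast meiosis and sporulation, and they were followed in growing haploid cells, in which neither process takes place. They were taken by their systematic names from the table of 6666 annotated coding sequences (CDSs), and all 35 were found. By role they comprise 4 regulators, 10 genes of recombination, 4 of the chromosome axis and its kinase and cohesin, 5 of synapsis and crossing over, and 12 of the meiotic division and the spore.

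Ribosome profiling, which sequences the mRNA fragments that ribosomes protect, had been done on 2 replicate libraries of Saccharomyces cerevisiae strain BY4742. This laboratory haploid has mating type alpha and carries deletions in HIS3, LEU2, LYS2 and URA3. Both libraries came from cells in mid-exponential growth in a synthetic medium and received 50 µg/mL of cycloheximide, which stalls elongating ribosomes on the mRNA. They form 1 group, so no condition could be compared, and the labels do not say whether they came from separate cultures.

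Replicate 1 held 23437283 reads in CDSs and replicate 2 held 2733591, so 1 read in replicate 2 weighed as much as 8.57 in replicate 1. Levels are given as counts per 1000000 CDS reads (CPM) divided by the coding length in kilobases. This was possible for the 5993 CDSs found in the R64 annotation, called located CDSs here, whose medians were 21.97 CPM per kilobase in replicate 1 and 12.6 in replicate 2. The alpha-cell label held in the marker genes. The 4 alpha-specific genes had 7.46 to 5824 CPM per kilobase in replicate 1 and 4.40 to 4905 in replicate 2. The 6 a-specific genes had at most 1.92 and 0.282, with AGA2 at 0 in both.

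In yeast, meiosis is started by starvation in diploid cells that carry both mating types. The activator Ime1 then joins the DNA-binding protein Ume6 at the URS1 element of early genes, which Ume6 keeps shut during growth together with histone deacetylase. The products of the early genes break and repair DNA between homologous chromosomes and build the synaptonemal complex. The transcription factor Ndt80 later turns on the middle genes, for the divisions and the spore, through the middle sporulation element (MSE), at which the repressor Sum1 acts in growing cells. Ribosome footprints combine the amount of mRNA with its translation. A low count cannot tell a weak signal in every cell from a signal in a few cells.

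Nearly all of these genes were read far less than the typical CDS, but 2 stood apart. REC107, for a protein of meiotic DNA break formation, and UME6 together had 1634 of the 2352 reads of the 35 genes in replicate 1, which is 69.5% (95% Wilson interval 67.6% to 71.3%). In replicate 2 they had 132 of 179, or 73.7% (66.9% to 79.6%). Intervals here cover counting error only. The median of the 35 was 0.446 CPM per kilobase in replicate 1 and 0 in replicate 2, and without these 2 genes it was 0.383 and 0. Below the median of the located CDSs lay 34 of the 35 in each library, REC107 being the exception. Levels under 1 CPM per kilobase were found in replicate 1 for 26 of the 35, or 74.3%, and for 15.8% of the located CDSs.

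**Figure D1:**
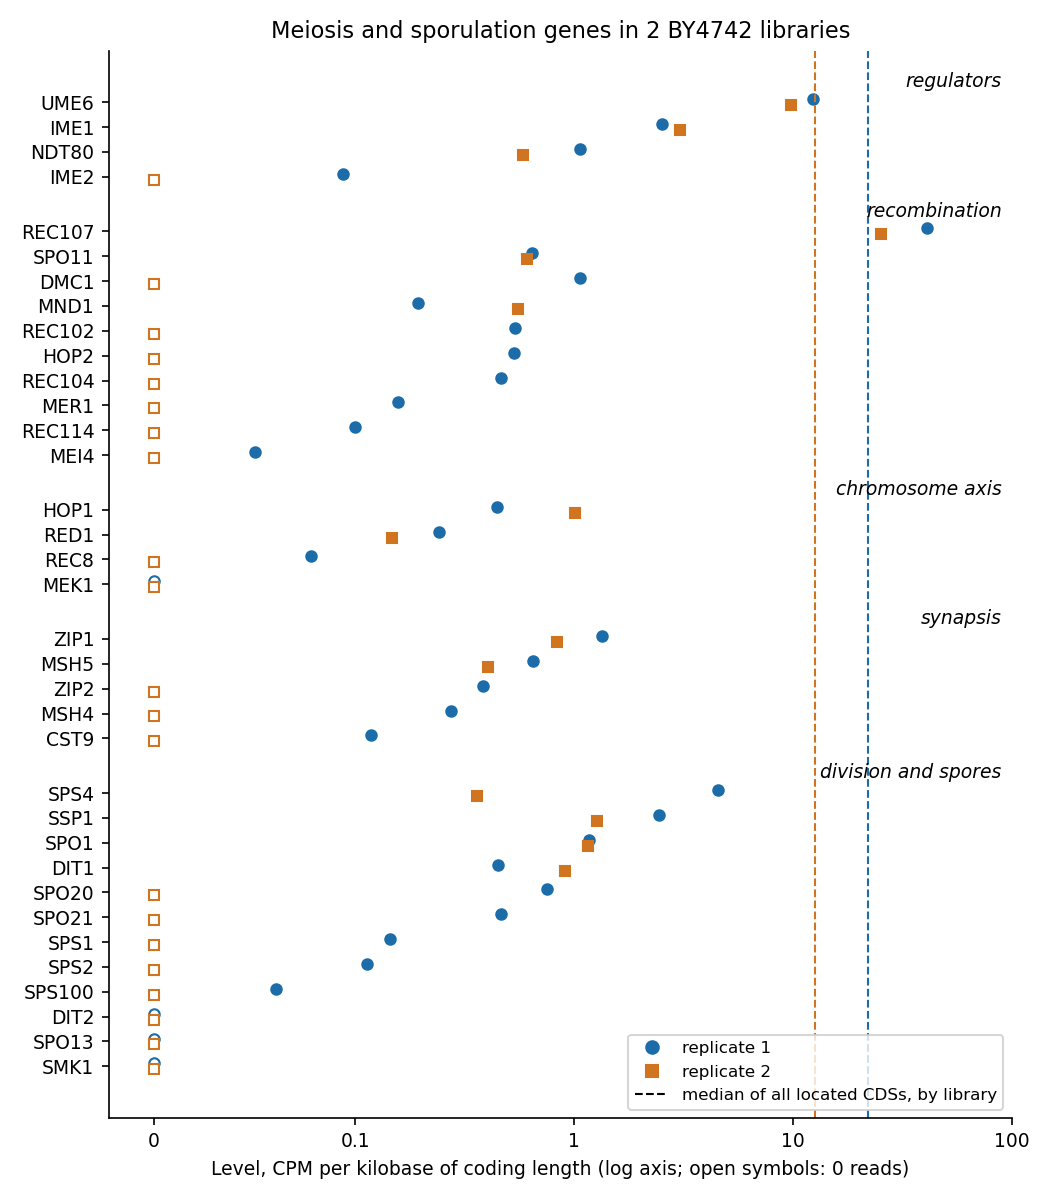
Level of each of the 35 genes in replicate 1 (circles) and replicate 2 (squares), in CPM per kilobase on a log axis, by role; open symbols at the left mark 0 reads, and the dashed lines mark the median of the located CDSs in each library. REC107 lies above both lines at 41.0 and 25.2, UME6 follows at 12.3 and 9.76, and the other genes lie at or below 4.53.

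The number of genes with any signal differed between the libraries, of which replicate 1 was the deeper. At least 1 read was counted for 31 of the 35 in replicate 1, or 88.6%. This is below the 92.6% of the located CDSs, to which all 35 belong, and above the 84.5% of all 6666 CDSs. In replicate 2 it was 14, or 40%, beside 86.8% of the located and 78.3% of all CDSs. The same 14 had a read in both libraries, beside 86.7% and 78.2%. At least 3 reads in both were counted for 10, beside 82.9% and 74.6%. In both libraries at least 10 reads were counted for 2 of them, REC107 and UME6, which is 5.71% beside 74.6% of the located and 67.1% of all CDSs. In replicate 1 alone 19 reached 10 reads, or 54.3% beside 86.9% and 78.3%. Of the 21 genes at 0 in replicate 2, 15 had so few reads in replicate 1 that fewer than 1 would be implied at the depth of replicate 2. A 0 there therefore says little about most of them.

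The regulators spanned the range from near the typical CDS to almost no reads. UME6 (YDR207C, chromosome IV, 865012 to 867522, minus strand) had 726 reads in replicate 1 and 67 in replicate 2. Per kilobase this was 11.0 ± 1.82 CPM (SD, n = 2), at percentile 39.2 and 44.7 of the located CDSs. Each SD here is that of 2 CPM values. It therefore includes the shift between the libraries as a whole, whose medians were 21.97 and 12.6. Ume6 is the member with a known task in growing cells, where it represses early meiotic genes. IME1 (YJR094C, chromosome X, 604569 to 605651, minus strand), the master inducer of meiosis, had 64 and 9 reads, or 2.78 ± 0.367 CPM per kilobase. By the mean of the libraries it came next after REC107 and UME6, but in replicate 1 its 2.52 CPM per kilobase lay below the 4.53 of SPS4. NDT80, the activator of the middle genes, had 47 and 3 reads, or 0.823 ± 0.341 CPM per kilobase. IME2, the protein kinase that acts right after Ime1, had 4 and 0 reads. Its 4 reads stood for 0.0881 CPM per kilobase in replicate 1, and the 0 in replicate 2 allows up to 0.566. In each library IME1 lay above NDT80, and NDT80 above IME2. With 9, 3 and 0 reads in replicate 2, that order is weakly based there.

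The repressors that hold meiosis back in growing cells, and the signalling genes upstream of IME1, were read well. Of 12 such genes, all had at least 10 reads in both libraries, and their median was 31.5 CPM per kilobase in replicate 1 and 22.3 in replicate 2. Below the median of the located CDSs lay 5 of them in replicate 1 and 3 in replicate 2. MCK1, a kinase that promotes IME1 expression, was highest with 127 ± 4.09, followed by the histone deacetylase gene RPD3 with 59.8 ± 16.6. RME1, the repressor of IME1 in haploids, had 44.5 ± 21.1 CPM per kilobase (SD, n = 2), from 1256 and 73 reads. Its level was 23.5-fold that of IME1 in replicate 1 and 9.73-fold in replicate 2.

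Among the recombination genes REC107 was the exception. REC107 (YJR021C, also called MER2, chromosome X, 468555 to 469579, minus strand) had 908 reads in replicate 1 and 65 in replicate 2. These are 41.0 and 25.2 CPM per kilobase, a mean of 33.1 ± 11.2 (SD, n = 2), at percentile 63.2 and 62.9 of the located CDSs. The other 9 recombination genes had at most 25 reads in replicate 1 and at most 2 in replicate 2. SPO11, for the protein that cuts DNA to start meiotic recombination, had 18 and 2 reads, or 0.626 ± 0.0215 CPM per kilobase. DMC1, the meiosis-specific strand exchange protein, had 25 and 0 reads. Its partners HOP2 and MND1, which form a complex that stabilises Dmc1 filaments, had 8 and 0 and 3 and 1 reads. Of the genes needed with SPO11 for break formation, REC102 had 10 and 0 reads, REC104 6 and 0, REC114 3 and 0, and MEI4 1 and 0. MER1, a meiosis-specific splicing factor, had 3 and 0 reads. Mer2, Rec114 and Mei4 act together in break formation. Per kilobase REC107 was 412-fold above REC114, which had 3 reads, in replicate 1 (95% exact interval 141 to 2003).

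Introns were common among these genes, and REC107 has one. Of the 35, 8 have an intron, or 22.9%, beside 4.51% of the located CDSs. REC107 mRNA is known to be made in growing cells too, and to be spliced efficiently in meiosis, with the help of Mer1. The 5′ splice sites are shown because the introns differ in these letters. Capitals mark the first 6 bases of the intron, after the last 8 bases of the exon (R64, strand of the gene).
REC107, chrX:469184-469263, minus strand: tacgaacgGTTCGTaccaacac
DMC1, chrV:548553-548644, plus strand: cagtcaatGTATGTtataataa
REC102, chrXII:786616-786712, plus strand: tgttgaaaGTATGTttctccta
REC114, chrXIII:537449-537564, plus strand: tgaaatggGTATGTatgcattt
MND1, chrVII:157200-157282, minus strand: caacaatgGTATGTctaataaa
MEI4, chrV:239624-239711, minus strand: ggataatcGTACGTgaaattgt
HOP2, first intron, chrVII:435680-435749, plus strand: ctcagaagGTTAAGtatttttt
SPO1, chrXIV:609791-609874, plus strand: aggccaaaGTAAGTtaaactct
The coordinates are those of the whole intron. GTATGT opens 205 of the 280 annotated introns in CDSs, or 73.2%. GTTCGT of REC107 opens 2 of them, the other in CQD1, and GTTAAG of HOP2 opens 1.

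The REC107 intron of 80 nt follows an exon of 316 nt, which is 33.4% of its coding length. Read without splicing, the frame would meet a stop codon after 131 codons, against 314 codons when spliced. The counts are per gene, so they do not show how the 908 and 65 reads divide between the exons, and whether reads in introns were counted is not given in the sources used here. The other 7 genes with an intron had 0.0348 to 1.17 CPM per kilobase in replicate 1 and 0 to 1.16 in replicate 2. REC107 thus lay above every other intron-bearing gene of the set in both libraries.

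The genes of the chromosome axis were all low. HOP1, a protein of the axis along which chromatin loops are anchored, had 19 and 5 reads, or 0.446 and 1.01 CPM per kilobase. Its partner RED1 had 14 and 1 reads, or 0.240 and 0.147. REC8, the cohesin subunit that replaces Mcd1 in meiosis, had 3 and 0 reads. MEK1, the kinase that steers repair toward the homologous chromosome, was listed at 0 in both, which allows up to 0.0857 and 0.735 CPM per kilobase. HOP1 and RED1 kept the same order in both libraries, but with 5 reads and 1 read in replicate 2 that order is weakly based.

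Of the synapsis genes ZIP1 was read most. ZIP1, for a structural protein of the synaptonemal complex, had 83 and 6 reads, or 1.35 and 0.835 CPM per kilobase. ZIP2, which helps to start synapsis, had 19 and 0 reads, and CST9, also called ZIP3, a SUMO ligase at the same sites, had 4 and 0. MSH5 and MSH4, which form a complex that promotes crossovers, had 41 and 3 and 17 and 0 reads. Per kilobase MSH5 had 0.646 CPM in replicate 1 and MSH4 had 0.275.

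By the mean of the libraries SPS4 and SSP1 were the highest genes of the division and the spore, SPS4 through replicate 1 alone. SPS4, a sporulation gene expressed in the middle to late phase, had 108 reads in the first library and 1 in the second, or 4.53 and 0.360 CPM per kilobase, the widest gap between the libraries among these 12 genes. In replicate 2 it lay below SSP1, SPO1 and DIT1. SSP1, for a coat protein at the leading edge of the prospore membrane, had 98 and 6 reads, or 1.86 ± 0.819 CPM per kilobase. SPO1, related to phospholipase B, had 52 and 6 reads, or 1.17 and 1.16 CPM per kilobase. With 6 reads in replicate 2, the exact interval of its fold between the libraries ran from 0.347 to 2.30, so equal levels are not shown. The likeness of these values also rests on scaling by CDS totals. With edgeR's TMM factors the log2 ratio of replicate 2 over replicate 1 was 0.40.

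The remaining spore genes had few reads. SPO20, a SNARE of the prospore membrane, had 21 and 0, and SPO21, a protein of the meiotic spindle pole body, had 20 and 0. The protein kinase gene SPS1 had 5 and 0 reads, its neighbour SPS2 had 4 and 0, and SPS100, needed late in spore wall maturation, had 1 and 0. DIT1, an enzyme of dityrosine synthesis for the outer spore wall, had 17 and 4 reads. DIT2, the cytochrome P450 of the same pathway, was listed at 0 in both, although its start lies 898 nt from that of DIT1 on the opposite strand. SPO13, which keeps sister chromatids together in the first division, and SMK1, the MAP kinase of spore wall assembly, were also at 0 in both. In replicate 1 these zeros allow up to 0.0871 CPM per kilobase for DIT2, 0.146 for SPO13 and 0.110 for SMK1.

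Genes of the same pathways outside the 35 were also low. Of 15 other early meiotic genes, all lay below the median of the located CDSs in both libraries, and their median was 0.151 CPM per kilobase in replicate 1 and 0 in replicate 2. The highest were SPO16 with 64 and 1 reads, AMA1 with 47 and 7 and GMC1 with 58 and 3. Of 28 other spore formation genes, 27 lay below that median in replicate 1 and 28 in replicate 2, with medians of 0.300 and 0. The exception in replicate 1 was SPO73, with 231 and 12 reads, or 22.8 and 10.2 CPM per kilobase. The 22 genes of recombination, repair and cohesion that mitotic cells use had higher medians, 11.4 and 5.02, and all 22 had at least 10 reads in both libraries. Still, 16 of the 22 lay below the median of the located CDSs in replicate 1 and 13 in replicate 2. The highest of the 22 were MCD1, for a cohesin subunit, and RFA1, for a single-strand DNA binding protein, with 63.8 ± 14.1 and 59.2 ± 10.6 CPM per kilobase.

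**Figure D2:**
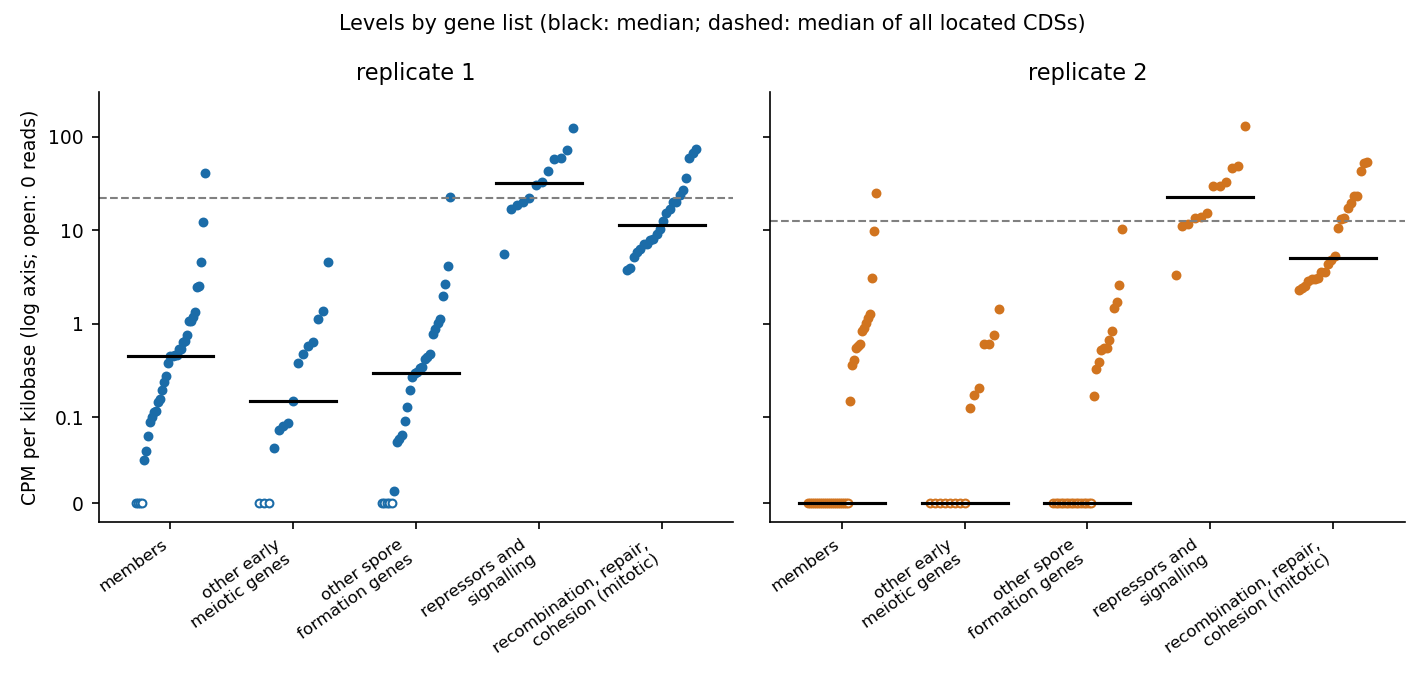
Each point is a gene, in CPM per kilobase on a log axis, in replicate 1 (left) and replicate 2 (right); open points mark 0 reads, black lines the median of a list and the dashed line the median of the located CDSs. The 3 lists of meiosis and spore genes have medians of 0.446, 0.151 and 0.300 in replicate 1 and 0 in replicate 2, and those of the repressors and of the mitotic recombination genes have 31.5 and 11.4 in replicate 1.

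Several members have a relative that growing cells use, and in each of 9 such pairs the member was lower per kilobase in both libraries. For cohesin, MCD1 had 2941 and 250 reads against 3 and 0 for REC8. Per kilobase this is 1177-fold more in replicate 1 (95% exact interval 403 to 5713) and at least 100.1-fold in replicate 2, against a floor of 3 reads per library. That floor leaves out the counting error of MCD1, and the lower limit of the 95% exact interval is 80.8-fold. For the other genes at 0 the exact lower limit follows the floor value in brackets. Of the MutS homologues, MSH6 had 2323 and 201 against 41 and 3 for MSH5, or 41.1-fold (30.2 to 57.4) and 48.6-fold (16.4 to 238).

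Among the kinases and membrane proteins the pairs were ordered alike. RAD53, a checkpoint kinase with an FHA domain as in Mek1, had 643 and 32 reads against 0 and 0 for MEK1, or at least 130-fold (105) and 6.46-fold (4.96) more per kilobase. The cell wall MAP kinase gene SLT2 had 968 and 51 reads against 0 and 0 for SMK1, or at least 259-fold (210.1) and 13.6-fold (10.7). The exocytic SNARE gene SEC9 had 2478 and 290 against 21 and 0 for SPO20, or 72.0-fold (47.0 to 117) and at least 59.0-fold (47.7). ERG11, the cytochrome P450 of ergosterol synthesis, had 3671 and 376 against 0 and 0 for DIT2, or at least 1129-fold (918) and 116-fold (93.6). ECM33, of the same cell wall family as SPS2, had 8938 and 554 against 4 and 0, or 2614-fold in replicate 1 (1021 to 9595) and at least 216-fold (175) in replicate 2. The smallest differences between the mean levels, 5.33 and 3.37 CPM per kilobase, were those of pairs in which the relative was low as well. YGP1, the paralog of SPS100, had 113 and 18 reads against 1 and 0, or 104-fold in replicate 1 (18.3 to 4147) and at least 5.53-fold (4.05) in replicate 2. The phospholipase gene PLB1 had 218 and 24 against 52 and 6 for SPO1, or 3.98-fold (2.93 to 5.50) and 3.80-fold (1.51 to 11.4).

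**Figure D3:**
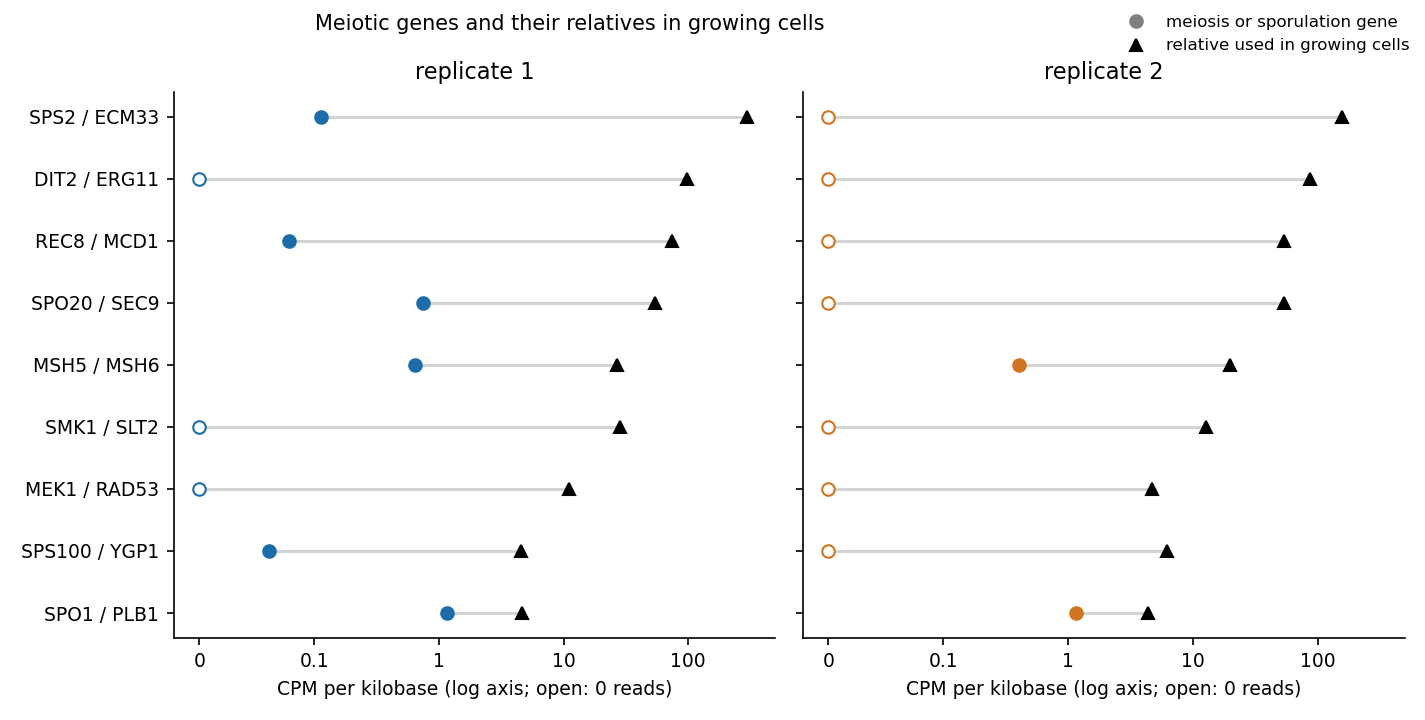
Level of 9 meiosis or sporulation genes (circles) and of their relatives in growing cells (triangles), in CPM per kilobase on a log axis, in replicate 1 (left) and replicate 2 (right); open circles mark 0 reads. The triangle lies to the right in all 9 pairs in both libraries, where both genes had reads from 3.80-fold for PLB1 over SPO1 in replicate 2 to 2614-fold for ECM33 over SPS2 in replicate 1.

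Summed, the reads of the 35 genes were lower per CDS read in replicate 2, about as much as the typical CDS. Their 2352 reads in replicate 1 stood against 179 in replicate 2, a fold of 0.653 per CDS read (95% exact interval 0.557 to 0.760), beside a median of 0.639 over the 5131 CDSs that averaged 10 reads or more. Most of these reads were those of REC107 and UME6, and without both the sums were 718 and 47, a fold of 0.561 (0.409 to 0.754). An exact binomial test with Benjamini-Hochberg adjustment set the split of each count against the CDS totals, which compares these libraries beyond counting error and not conditions. It called 71.2% of the 5131 CDSs, 63.9% as lower and 7.25% as higher in replicate 2. Of the 15 members at or above that average, it called 2, both lower in replicate 2, and at such low counts a missed call does not show that the libraries had equal levels. The other 20 members fell short of it.

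Both calls were examined against the shared shift. SPS4, with 108 reads against 1, had a fold of 0.0794 (95% exact interval 0.00199 to 0.452) and an adjusted p of 0.000266 in the exact binomial test. Its interval lies below the shared 0.639, and its log2 ratio, with 1 CPM added to both values, was -2.04, or -1.43 relative to the median of the tested CDSs. REC107, with 908 reads against 65, had a fold of 0.614 (0.470 to 0.790) and an adjusted p of 0.00014 in the exact binomial test. Its interval includes the shared shift, and with edgeR's TMM scaling its adjusted p was 0.736. UME6 had a fold of 0.791 (0.607 to 1.02) and was not called. HOP1 and DIT1 leaned the other way, with folds of 2.26 (0.658 to 6.25) and 2.02 (0.494 to 6.18), and neither was called.

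**Figure D4:**
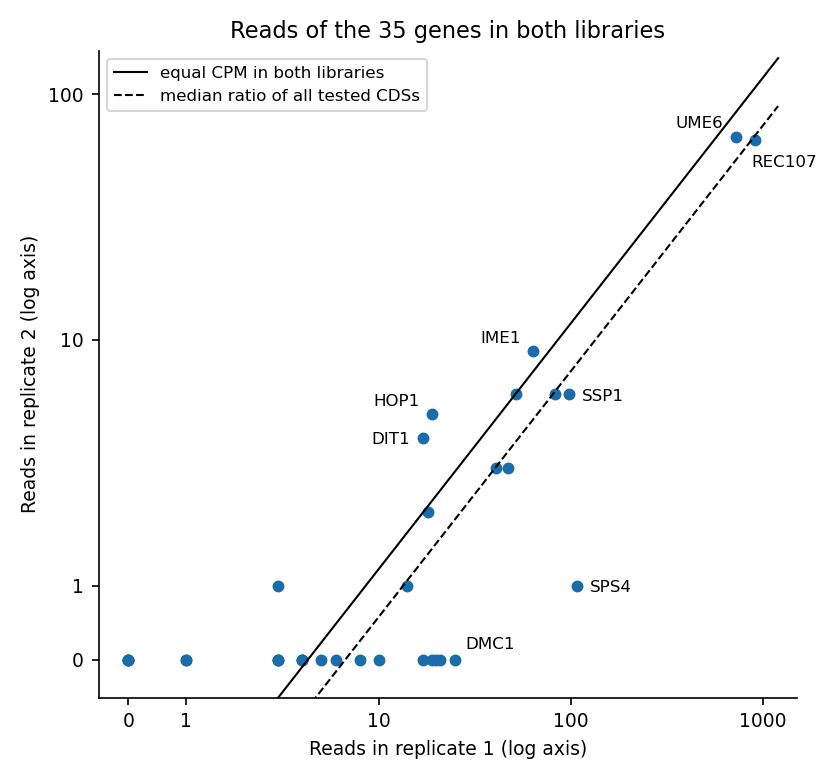
Reads of each of the 35 genes in replicate 1 and replicate 2, on log axes with 0 placed at the lower end; the solid line marks equal CPM and the dashed line the median ratio of the tested CDSs, 0.639. REC107 (908 and 65 reads) lies by the dashed line, UME6 (726 and 67) between the lines, and SPS4 (108 and 1) far below both.

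The windows around the start codons differed by role in the letters of known meiotic elements. The URS1 core GGCGGC, searched on both strands from 250 bases before to 50 bases after the start of the start codon, was found in 14 of the 35 genes, or 40%, against 5.16% of 5992 CDSs. It was found in 6 of 10 recombination genes, 3 of 4 axis genes, 2 of 5 synapsis genes, 1 of 4 regulators and 2 of 12 division and spore genes. The MSE core CACAAA, which does not overlap it in letters, was found in 13 of the 35, or 37.1%, against 18.8% of the CDSs. It was found in 8 of 12 division and spore genes and 0 of 10 recombination genes. Both were found in CST9 and SMK1, and neither in 10 of the 35, REC107 among them. A match is a description of letters, not a binding site.

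**Figure D5:**
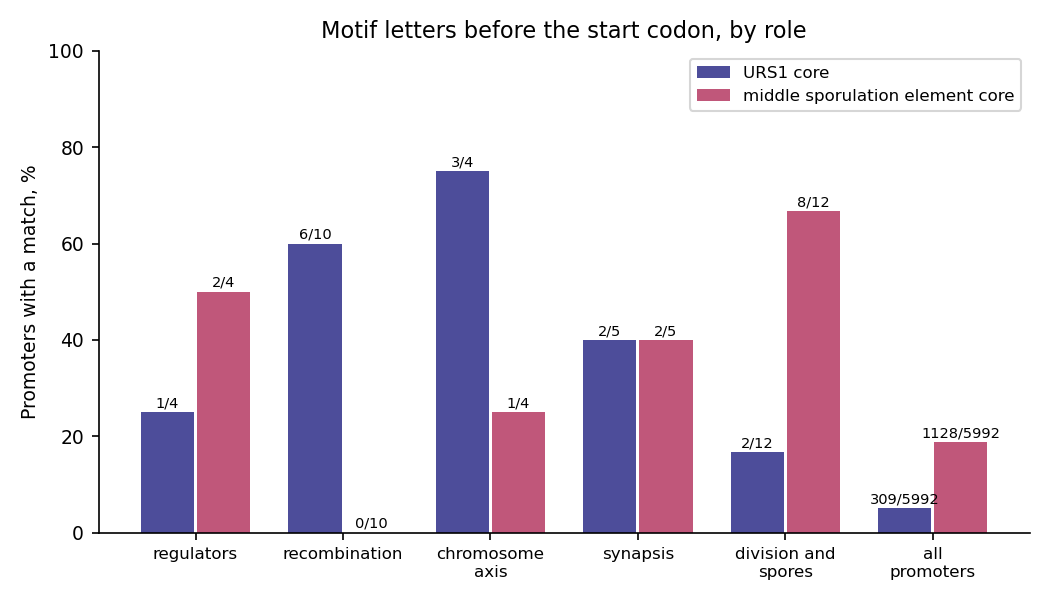
Share of windows from 250 bases before to 50 after the start of the start codon that hold the URS1 core or the MSE core on either strand, by role and over all CDSs, with the counts above the bars. The URS1 core is found in 6 of 10 recombination genes and the MSE core in 8 of 12 division and spore genes, beside 5.16% and 18.8% of all CDSs.

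Matches of 8 of the 14 genes with the URS1 core are shown as examples from each role. They were picked after the sequences were seen, so how alike their flanks are says nothing of the others. Capitals mark the URS1 core, with 10 bases on each side, on the strand of the gene in R64.
SPO13, chrVIII:131942-131967, plus strand: ttgagaaataGCCGCCgacaaaaagg
DMC1, chrV:548273-548298, plus strand: ccggaaaataGCCGCCcaaggataaa
MER1, chrXIV:250811-250836, plus strand: tcgcattttaGCCGCCgacagtgtta
HOP1, chrIX:226421-226446, plus strand: ttttaacctgGGCGGCtaaattgtac
MEI4, chrV:239855-239880, minus strand: tatattgctgGGCGGCtaaatgtttc
HOP2, chrVII:435486-435511, plus strand: ttatgtcctcGGCGGCtaaattttcc
ZIP1, chrIV:1032406-1032431, plus strand: aaataccctcGGCGGCtaaattttta
UME6, chrIV:867649-867674, minus strand: ggcggaaactGCCGCCgtcaaaaaga
In the next matches, from 4 of the 13 genes with the MSE core, capitals mark that core. All 4 also match the longer GNCACAAA, which 6 of the 13 hold.
SSP1, chrVIII:472639-472664, plus strand: aaacaggcgaCACAAAatcatgaagt
SPS4, chrXV:903049-903074, minus strand: tgacgcgcgcCACAAAaacgtatcat
SMK1, chrXVI:666191-666216, plus strand: gcgccactaaTTTGTGacacttgaac
NDT80, chrVIII:356466-356491, plus strand: tgccctccatTTTGTGtcacctattt
Of the 14 genes with the URS1 core, 11 also held the longer AGCCGCC, found in 2.19% of the CDSs. UME6, REC8 and SMK1 are the 3 that did not.

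Genes with and without these letters were mostly low. Of the genes with the URS1 core UME6 was the highest, and the other 13 had 0 to 1.35 CPM per kilobase in replicate 1, with a median of 0.118, and 0 to 1.01 in replicate 2. The 21 genes without it had medians of 0.466 and 0.147. The 13 genes with the MSE core had 0 to 4.53 in replicate 1, with a median of 0.646, and 0 to 3.04 in replicate 2, and the 22 without it had a median of 0.329 in replicate 1. These ranges overlap, and roles, lengths and depth are mixed in them.

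No reads were found in intergenic open reading frames (IGORFs) just before these genes. IGORFs ending within 200 nt upstream on the same strand existed for 30 of the 35, 102 in all, and all were at 0 in both libraries. Of the located CDSs, 10.7% had such a read in replicate 1 and 19.3% in replicate 2. These shares cover CDSs of every level. No share is given for CDSs with as few reads as most of the 35, so whether the zeros are particular to them was not tested. Within 500 nt, 2 reads appeared, both in replicate 2, 1 in an IGORF 272 nt before SPO13 and 1 in an IGORF 398 nt before SPS1. The IGORF table of replicate 1 held 4057 reads in all and that of replicate 2 held 15116, so most IGORFs anywhere are at 0. Per CDS read this is 31.9-fold more in replicate 2, the shallower library. Whether each IGORF table stands under its own library was not tested, and the split of these reads and shares between the libraries rests on that. With the tables exchanged, the count within 200 nt is 0 as well.

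The 35 genes share some features of sequence. Their coding lengths ran from 549 to 2706 nt with a median of 1470, against 1197 for the located CDSs. Their GC content had a median of 37.2%, against 39.8%. The highest values in the set were those of REC107 with 47.1% and UME6 with 44.4%, the members with the most reads. Next came SMK1 with 43.2%, at 0 reads in both libraries, and SPS100 with 42.5%, at 1 and 0 reads. Whether GC content goes with reads was not tested. None of the 35 overlapped another CDS of the annotation, and none held a 28-base stretch that occurs elsewhere in the genome, so a read of that length or longer has no second place in the genome.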

How the data were processed

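Ribosome footprints of 2 BY4742 libraries were available as deposited tables of raw counts per CDS and per IGORF, per the file headers. The submitters' processing notes name cutadapt, Bowtie, SAMtools and the build sacCer3. Which annotation and counting tool were used, with which strand setting and read filters, is not given in the sources used here, and these choices decide which reads reach a gene.

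CPM values were computed over the total of CDS counts. Positions, introns and sequences were read from RefSeq R64, on which all 78989 IGORF identifiers were bounded by stop codons. An intron is a gap of at least 20 nt. Of the 6666 CDSs, 673 were not found there, and overlaps with them were not analysed here. The exact binomial test took CDSs that averaged 10 or more reads, with a threshold of 0.05. It was tested on simulated data that held counting error only and no shared shift between the libraries. How it behaves under such a shift was therefore not tested. Log2 ratios used a pseudocount of 1 CPM. Intervals are at 95%, and a count of 0 was given a limit of 3 reads. Both cover counting error alone. The counts per gene carry no molecular identifiers, so repeated copies of a fragment could not be recognised here.

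Named genes were all 35 members, their relatives in the pairs, and the 3 highest genes of each other list. AGA2, CQD1, HFM1, MSH3 and SPO22 fall outside this rule and were named after their values were seen. Some genes that this rule names are not reported here. Members and lists were chosen with earlier results of these data known. Scaling factors came from edgeR 4.0.16 and DESeq2 1.42.0 (R 4.3.3). Tests and sequence work were run in Python 3.11.15, scipy 1.17.1 and pandas 2.3.3.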

Additional observations from a re-analysis of the deposited data

How the results depend on the processing

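The calls between the libraries depend on the scaling. The 3652 CDSs called with CDS totals (372 higher and 3280 lower in replicate 2) became 2279 with edgeR's TMM factors (1248 and 1031) and 2263 with DESeq2's size factors (1317 and 946), because these factors take out the shared shift, a median log2 ratio of -0.61. Among the members 2 calls became 1 with either, SPS4, while REC107 had log2 ratios of -0.10 and -0.08 and adjusted p of 0.736 and 0.844. The log2 ratios, none of them called, changed sign with TMM and DESeq2 for UME6 (0.25 and 0.28), SPO11 (0.23 and 0.24) and SPO1 (0.40 and 0.42). With no minimum count, a mean of at least 30 reads or located CDSs alone, 2 members were called.

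The number of members with at least 10 reads in both libraries, 2, was 10 at a minimum of 3 reads and 14 at 1 read, and it ran from 2 to 19 with 1 library left out. The mean of the medians of the libraries, 0.223 CPM per kilobase, ran from 0 to 0.446. The 9 pairs were already counted by their direction in both libraries, so leaving 1 library out could not change that count. The longer core GNCACAAA, added after seeing the data, matched 6 members in place of 13, and 4.32% of CDSs. With 500 nt in place of 200, 2 members in place of 0 had a read in an IGORF upstream. A fold between the libraries could not be had there from 0 reads. No paired analysis was possible because both libraries belong to 1 group.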

Other observations

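Other genes known as targets of the splicing factor Mer1 were read less than REC107. This set was chosen after its values were seen. HFM1, also called MER3, a DNA helicase of crossover formation, had 53 and 2 reads, or 0.63 and 0.21 CPM per kilobase. AMA1, a meiotic activator of the anaphase-promoting complex, had 47 and 7 reads, or 1.13 and 1.44 CPM per kilobase. SPO22, also called ZIP4, had 5 and 1 reads.

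SPO73, a gene of prospore membrane growth, was the highest of the spore formation genes outside the 35. Its 231 and 12 reads lie above those of every division and spore gene of the set.

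The motif letters had a like pattern by role in the lists outside the 35. The URS1 core was found in 8 of 15 other early meiotic genes and in 3 of 28 other spore formation genes. The MSE core was found in 1 of the 15 and in 23 of the 28.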
